A study of Mus musculus with 13 samples.

Results

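Immediate early genes are the first genes that a cell transcribes after a stimulus, and 10 of them are described here across the proximal small intestine of 13 mice: Fos, Fosb, Jun, Junb, Egr1, Ier2, Atf3, Dusp1, Zfp36 and Nr4a1. They were taken by symbol from the table of unnormalised bead signals, which names 17896 genes, and each has 1 probe. All mice were male C57BL/6J animals. The 8 control mice ate regular chow, and the 5 ezetimibe mice ate chow with 0.005% ezetimibe, a drug that blocks cholesterol uptake by the protein NPC1L1 in enterocytes. Age, length of feeding and the interval between death and RNA extraction were not stated in the labels. The labels name each array as a separate biological replicate. The arrays were of the Illumina MouseRef-8 v2.0 type, on which bead-bound probes report gene levels in 1 colour, and the 13 lay on 2 slides. Slide 1 held controls 1 to 4 and ezetimibe mice 1 and 2, and slide 2 held controls 5 to 8 and ezetimibe mice 3 to 5.

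These genes need no new protein to be switched on. Growth factors, stretch and stress activate MAP kinases, which phosphorylate ternary complex factors bound with serum response factor at CArG boxes, and cyclic AMP and stress signals act through CREB and ATF proteins at cyclic AMP response elements. Their mRNAs are short-lived, and their proteins include both transcription factors and the inhibitors that end the signal. In excised tissue they are known to respond to handling as well as to physiology.

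The promoters of 8 members were matched in RefSeq (GRCm38.p6), and the 250 bases before the start site were searched on both strands. Egr1 and Ier2 had no promoter sequence in the source used and were not searched. The 4 windows shown here are from members whose levels are compared in later paragraphs, and capitals mark the cyclic AMP response element core TGACGT on either strand or, in Zfp36, the CArG box. Fos lies at chr12:85473640-85473889 (plus strand), Atf3 at chr1:191183334-191183583 (minus), Dusp1 at chr17:26508473-26508722 (minus) and Zfp36 at chr7:28379229-28379478 (minus).
Fos: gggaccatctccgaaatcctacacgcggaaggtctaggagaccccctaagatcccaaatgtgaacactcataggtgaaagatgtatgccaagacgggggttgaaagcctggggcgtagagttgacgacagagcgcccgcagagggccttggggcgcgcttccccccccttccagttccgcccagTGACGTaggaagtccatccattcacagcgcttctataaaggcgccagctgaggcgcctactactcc
Atf3: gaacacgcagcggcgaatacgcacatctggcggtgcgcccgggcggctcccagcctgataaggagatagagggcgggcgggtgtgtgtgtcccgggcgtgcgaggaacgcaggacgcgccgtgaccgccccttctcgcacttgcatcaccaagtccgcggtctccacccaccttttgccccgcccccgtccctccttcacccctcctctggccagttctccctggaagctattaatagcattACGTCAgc
Dusp1: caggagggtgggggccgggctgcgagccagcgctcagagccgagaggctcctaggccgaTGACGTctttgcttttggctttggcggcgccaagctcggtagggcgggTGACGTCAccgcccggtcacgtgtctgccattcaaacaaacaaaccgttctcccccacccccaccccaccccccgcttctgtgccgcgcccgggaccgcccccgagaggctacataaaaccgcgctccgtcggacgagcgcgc
Zfp36: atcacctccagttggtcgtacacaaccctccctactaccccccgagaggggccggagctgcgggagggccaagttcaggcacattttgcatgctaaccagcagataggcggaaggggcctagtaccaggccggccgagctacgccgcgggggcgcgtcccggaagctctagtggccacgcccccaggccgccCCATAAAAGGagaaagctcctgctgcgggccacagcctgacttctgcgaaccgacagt

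TGACGT was present in the windows of Fos, Atf3 and Dusp1, and in 6.469% of all 32851 promoter windows. Counted from the start site, it lay at bases -66 to -61 in Fos and -8 to -3 in Atf3. Dusp1 had it at -191 to -186 and, on both strands of one overlapping stretch, at -143 to -138 and -141 to -136. The spaced element TGACNTCA, which overlaps TGACGT in Dusp1, was found in Dusp1 and Jun and in 7.488% of all windows. A CArG box was found in Zfp36 at -58 to -49 and in 1.467% of all windows, and TATAAA in Fos at -33 to -28 and in 12.368%. A match describes the letters of the window and is not a measured binding site.

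Median bead signals were 146.9 to 152.8 on slide 1 and 120.7 to 127.9 on slide 2, with 11085 to 12380 probes detected per array. Levels given here are log2 intensities after background correction and quantile normalisation, with the slide difference taken out unless stated. All 7 tested enterocyte markers were detected on all 13 arrays. Their average on each array ran from 12.80 to 13.16 over the controls and from 12.92 to 13.10 over the ezetimibe mice. Single markers differed more, with control means from 11.24 for Mttp to 14.59 for Apoa1. The probes of Fabp1 and Fabp2, which encode enterocyte fatty acid-binding proteins, were detected on 0 of the 13. The samples also carried exocrine pancreas RNA in very unequal amounts. The mean level of all 15 pancreas markers ran from 5.98 (control 7) to 12.17 in controls and from 6.10 to 13.22 (ezetimibe mouse 4) in treated mice. In bulk tissue, fewer cells of a type and less RNA per cell cannot be told apart.

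No member passed the test for a change with ezetimibe. Of the 10 members, 7 were detected on all 13 arrays, Fosb on 8, and Ier2 and Nr4a1 on 0, so 8 entered the test. Past an adjusted p of 0.10 (limma, slide in the model, Benjamini-Hochberg over 11887 probes), 0 of these 8 were called, against 0.252% of all tested probes. At an unadjusted p of 0.05 the members also gave 0, against 6.18% of all tested probes. The slide-adjusted levels of the groups were separate for 0 members, against 0.623% of all tested probes. The median log2 fold change was 0.02 in the members and -0.0010 over all tested probes, with 5 of the 8 above 0. The 95% intervals of the fold differed in width between members, from 0.907 to 1.15 for Zfp36 to 0.636 to 1.17 for Egr1, and the highest upper bound was 1.35, for Junb.

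**Figure D1:**
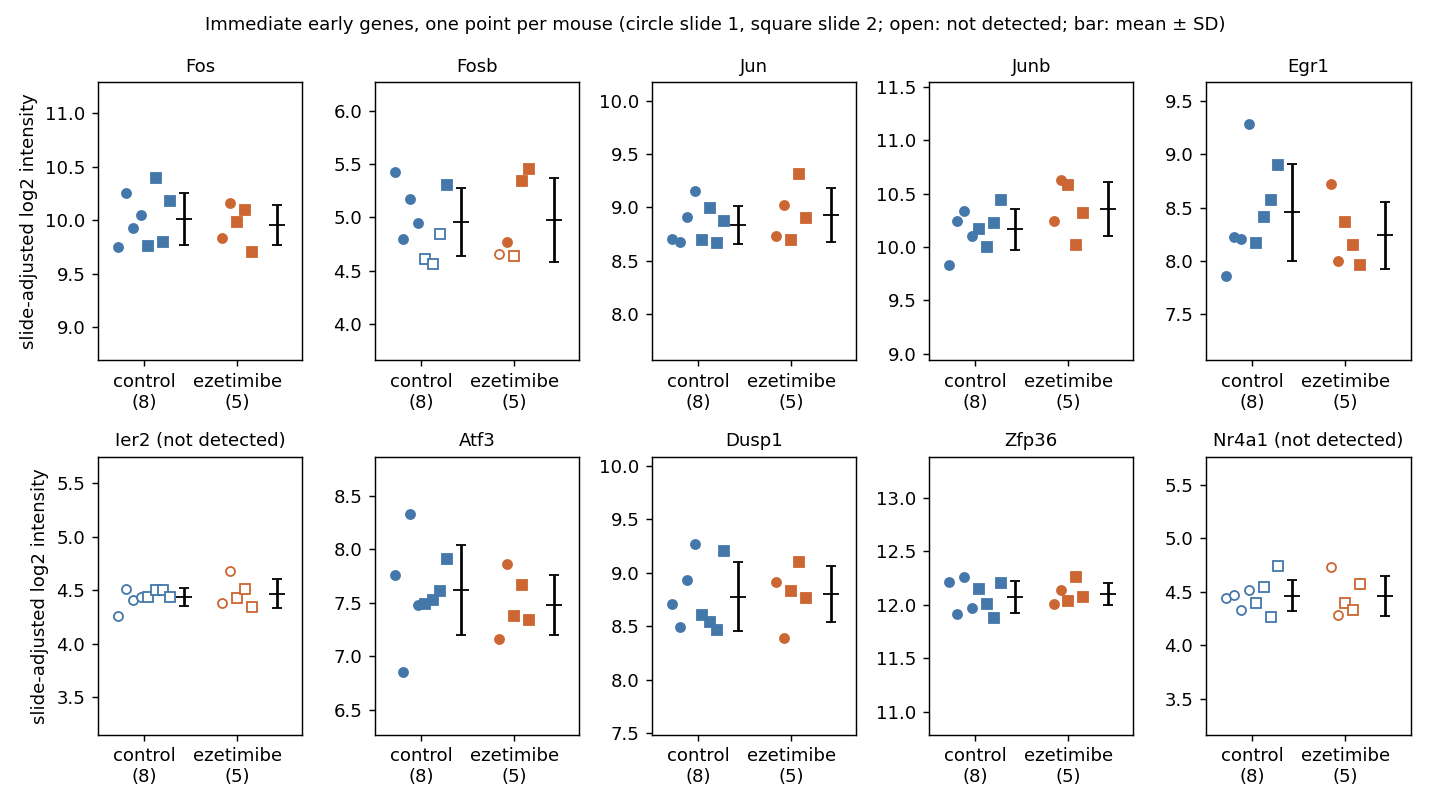
Slide-adjusted log2 intensity of each of the 10 members on every array, with control (8 mice) and ezetimibe (5 mice) arrays side by side, bars giving mean ± SD, marker shape giving the slide and open markers standing for arrays where the probe was not detected. The groups overlap for every member, and Ier2 and Nr4a1 were not above background on any array.

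Fos and its dimer partners form AP-1, the transcription factor assembled from a FOS and a JUN protein. Fos was at 9.75, 9.98 and 10.40 (lowest, median and highest) in the controls and at 9.83, 10.16, 9.99, 10.09 and 9.70 in ezetimibe mice 1 to 5. The extremes among controls were control 1 and control 6, and the ezetimibe arrays lay within or just under the control range. The log2 fold change was -0.06 ± 0.12 (SE; 95% interval -0.32 to 0.20; limma adjusted p = 0.97). Fosb, a second FOS protein, was near background. Its controls were at 4.56, 4.90 and 5.43, and the ezetimibe mice at 4.66, 4.77, 4.64, 5.34 and 5.46. Both groups spanned almost the same range, and ezetimibe mice 4 and 5 were the high arrays of theirs. The fitted log2 fold change was 0.02 ± 0.19 (SE; 95% interval -0.39 to 0.42).

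Jun, the AP-1 subunit that can also pair with itself, was at 8.67, 8.79 and 9.15 in the controls and at 8.73, 9.02, 8.69, 9.31 and 8.90 in the ezetimibe mice. Ezetimibe mouse 4, the array with the most pancreas RNA, was the highest of all 13. Its log2 fold change was 0.10 ± 0.12 (SE; 95% interval -0.15 to 0.35), and it was 0.0025 without ezetimibe mouse 4 and -0.0097 with position on the slide in the model. Junb, a subunit that often restrains JUN, was at 9.83, 10.19 and 10.44 in the controls and at 10.24, 10.63, 10.58, 10.02 and 10.32 in the ezetimibe mice. Ezetimibe mice 2 and 3 were above every control, and mouse 4 lay in the lower part of the control range. Junb had the smallest p of the members, with a log2 fold change of 0.19 ± 0.12 (SE; 95% interval -0.06 to 0.44; limma unadjusted p = 0.125, adjusted p = 0.855). Its direction was the same in all alternatives run, from 0.095 to 0.34, and its smallest adjusted p among them (limma) was 0.3004.

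Egr1, a zinc finger factor induced through serum response factor, varied most between mice relative to probes of like level. It was at 7.86, 8.32 and 9.29 in the controls, from control 1 to control 4, and at 8.72, 8.00, 8.37, 8.15 and 7.96 in the ezetimibe mice. All treated arrays fell inside the control range. Between diets the log2 fold change was -0.21 ± 0.21 (SE; 95% interval -0.65 to 0.23; limma adjusted p = 0.918). Atf3, a stress-induced factor of the ATF and CREB family, was at 6.86, 7.57 and 8.33 in the controls and at 7.16, 7.86, 7.38, 7.67 and 7.34 in the ezetimibe mice. Its lowest and highest arrays were both controls, numbers 2 and 3, on the same slide. Atf3 had a log2 fold change of -0.14 ± 0.19 (SE; 95% interval -0.55 to 0.27).

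The remaining detected members encode inhibitors. Dusp1, a phosphatase that switches off MAP kinases, was at 8.46, 8.65 and 9.27 in the controls and at 8.92, 8.39, 8.83, 9.10 and 8.77 in the ezetimibe mice. Controls 4 and 8 were highest, and ezetimibe mouse 2 was lower than any control. The log2 fold change was 0.02 ± 0.16 (SE; 95% interval -0.31 to 0.36), and its sign turned in 11 of 32 alternatives. Zfp36, which binds AU-rich elements and speeds mRNA decay, was at 11.87, 12.08 and 12.26 in the controls and at 12.00, 12.14, 12.04, 12.26 and 12.07 in the ezetimibe mice. Ezetimibe mouse 4 was level with the highest control, and the other treated arrays lay within the control range. The log2 fold change was 0.03 ± 0.08 (SE; 95% interval -0.14 to 0.20).

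Ier2, a small nuclear protein gene, and Nr4a1, an orphan nuclear receptor gene, gave no signal above background on any array. Their detection p-values were 0.0627 to 0.833 for Ier2 and 0.0526 to 0.936 for Nr4a1. Raw signals were 112.2 to 153.3 and 105.9 to 148.8. A probe at background cannot tell a low transcript level from a probe that fails to report it, and that was not tested.

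**Figure D2:**
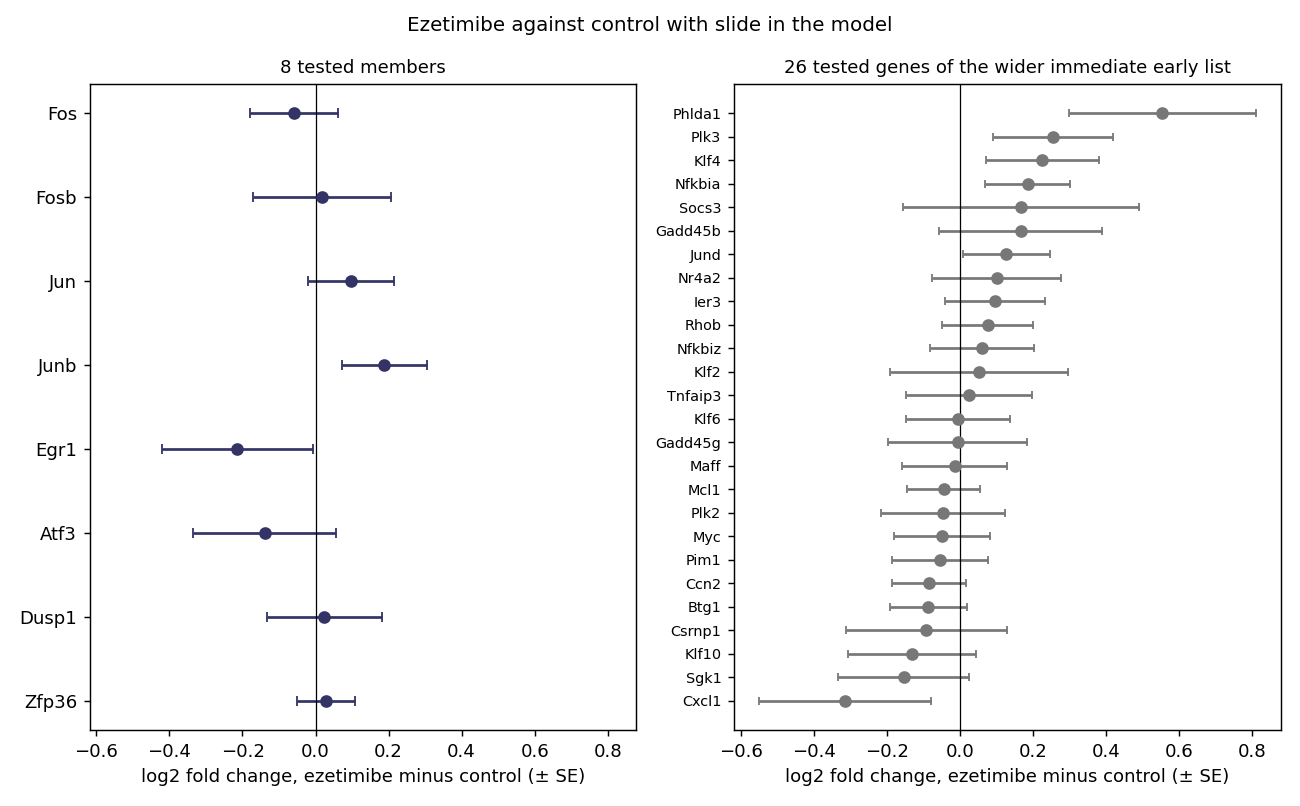
Log2 fold change of ezetimibe against control, with bars of ± SE, from the limma fit with slide in the model. The left panel holds the 8 tested members, and the right panel the 26 tested genes of the wider immediate early list. The 95% intervals given in the text span 0 for every member. Among the members Junb, at 0.19, lies farthest above 0, and Phlda1 is highest in the right panel at 0.55.

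Nor did any gene of the lists around the members pass. Of 39 other immediate early genes, 37 had a probe and 26 were tested. None passed an adjusted p of 0.10 (limma), against 0.252% of all tested probes, so 0 in a list of this size is near that share. At an unadjusted p of 0.05, 1 passed, against 6.18% of all tested probes. That gene was Phlda1, a growth factor-induced regulator of AKT signalling, with a log2 fold change of 0.55 ± 0.26 (SE; limma adjusted p = 0.784). Nfkbia, the inhibitor of NF-kappa-B, was next at 0.19 ± 0.12 (SE; limma adjusted p = 0.861). The list median was 0.01. Of the 13 tested upstream kinases and factors, 0 were called, 0 passed an unadjusted p of 0.05, and the median was -0.03. The smallest p in that list belonged to Elk3, a ternary complex factor, at -0.19 ± 0.12 (SE; limma adjusted p = 0.854), and to Mapk9, which encodes the kinase JNK2, at -0.11 ± 0.08 (SE; limma adjusted p = 0.861).

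Among the 10 tested MAP kinase phosphatases and mRNA decay factors, 0 were called, against 0.252% of all tested probes, and the median was 0.04. At an unadjusted p of 0.05, 2 passed, against 6.18% of all tested probes. Dusp4, a nuclear phosphatase of ERK and JNK, had means of 5.28 ± 0.24 (SD, n = 8) in controls and 5.78 ± 0.22 (SD, n = 5) in ezetimibe mice. Its log2 fold change was 0.49 ± 0.15 (SE; limma unadjusted p = 0.00395, adjusted p = 0.388). Nab1, a corepressor of EGR proteins, gave 0.30 ± 0.13 (SE; limma adjusted p = 0.772). Of 16 tested heat shock and stress genes, 0 were called, 0 passed an unadjusted p of 0.05, and the median was -0.07. Mt2, a metal-binding metallothionein, gave 0.48 ± 0.25 (SE; limma adjusted p = 0.833), and Bag3, a cochaperone of HSP70, gave -0.17 ± 0.09 (SE; limma adjusted p = 0.834).

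The members differed in how much they varied between mice of one group. The residual SD is the spread left in log2 level after slide and treatment are fitted, and its median was 0.276 in the members and 0.228 over all tested probes. Each member was set beside the 500 tested probes nearest to it in level. Egr1 had a residual SD of 0.428, higher than 96.4% of its 500 probes, whose median was 0.184. Atf3 had 0.393, higher than 92.6% of them. Fosb followed with 0.363 (89%) and Dusp1 with 0.315 (87.4%). Fos (0.237, 78%), Junb (0.226, 77.6%) and Jun (0.218, 68.4%) were nearer the middle, and Zfp36, at 0.141, was higher than 53% of its neighbours. From the lowest to the highest array, Egr1 spanned 2.69-fold and Atf3 2.78-fold, and in both the extremes were controls.

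**Figure D3:**
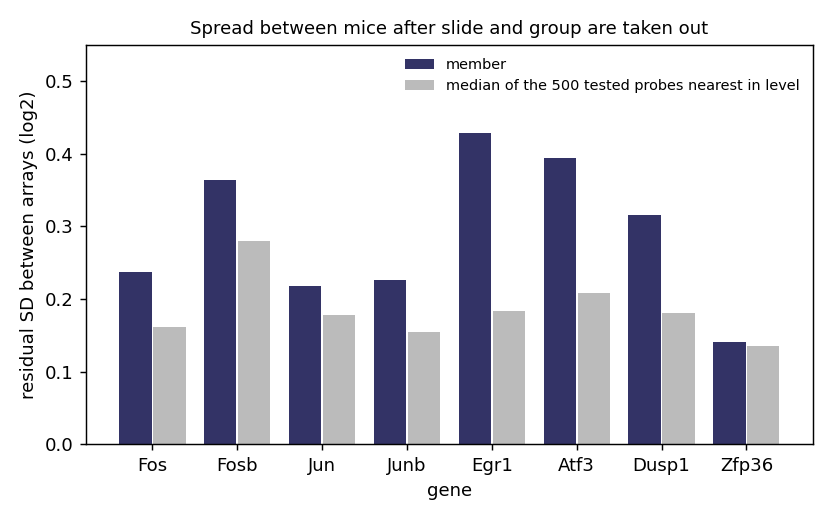
Residual SD in log2 level of each tested member, plotted with the median of the 500 tested probes nearest in level. Egr1 and Atf3 stand farthest above their neighbours, and Zfp36 sits at 0.141 beside a median of 0.135.

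With quantile normalisation, no pair of members passed the test for shared rise and fall over the 13 arrays, which measure the degree of sharing imprecisely. Over the 28 pairs of tested members, the median Pearson r across the 13 arrays was 0.13, with 17 pairs above 0 and 11 below. Single arrays moved this median: it was 0.065 without control 8, 0.20 without control 6 and 0.25 without ezetimibe mouse 2. The median over all pairs of tested genes was 0.0037, and 50.41% of those pairs were above 0, against 60.71% of the member pairs. After Benjamini-Hochberg adjustment of permutation p-values within slides, 0 of 28 pairs passed 0.10, and 1 had an unadjusted p under 0.05. The sign was the same on both slides for 14 of 28 pairs. The median r was 0.052 on slide 1 alone and 0.30 on slide 2 alone.

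Atf3 and Zfp36 had the highest correlation, with r = 0.70 (two-sided permutation p = 0.00894, adjusted 0.25) and Spearman's rho = 0.66 (permutation p = 0.0270, adjusted 0.62). It was 0.91 on slide 1 and 0.40 on slide 2, and 0.53 without controls 2 and 3, the arrays farthest from the median. Without control 7 it was 0.84 and passed (permutation, adjusted p = 0.0526). An r of 0.70 or more was found in 1.05% of all tested gene pairs. Egr1 and Dusp1 came next at 0.58 (two-sided permutation p = 0.0529, adjusted 0.534), with rho = 0.37. That relation rests on controls 4 and 8, since r was 0.060 without them. Fosb and Zfp36 gave 0.56 (two-sided permutation p = 0.0572, adjusted 0.534), and 0.60 without control 1 and ezetimibe mouse 5. The lowest pair was Egr1 with Zfp36, at -0.39.

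Taking out the slide changed several pairs. Fos with Dusp1, both with TGACGT in the windows printed above, gave r = 0.57 before slide adjustment and -0.0056 after it. Fos with Zfp36 went from -0.60 to -0.091, and Jun with Zfp36 from 0.63 to 0.36. The median r with the other 7 members was highest for Dusp1 and Zfp36, at 0.35 each, followed by Jun at 0.32. Of those 7 relations, 5 were above 0 for Dusp1, 4 for Zfp36 and 6 for Jun. Fos, at -0.0056, and Junb, at -0.031, shared least with the rest.

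**Figure D4:**
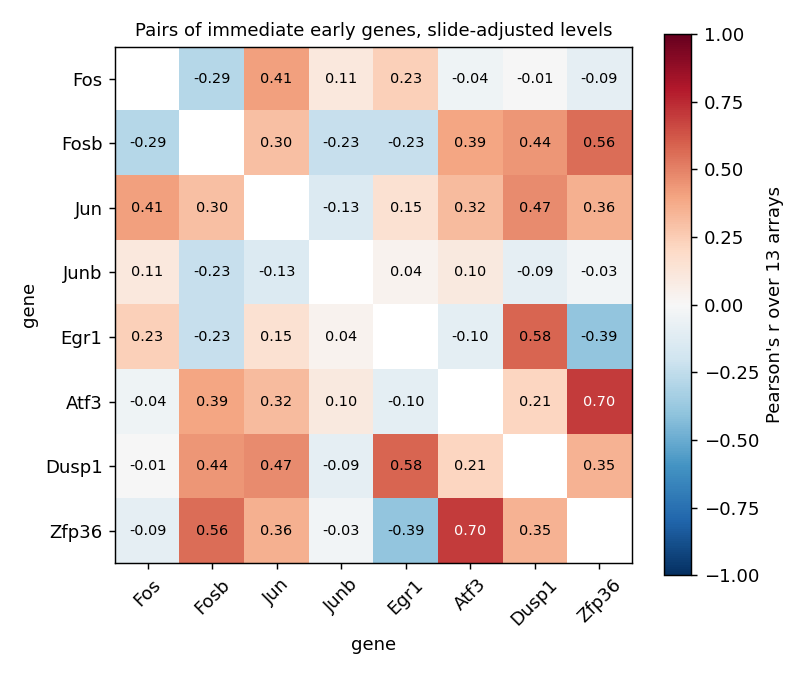
Pearson r between slide-adjusted levels of the 8 tested members over 13 arrays, as a coloured grid from blue (negative) to red (positive). Atf3 with Zfp36 is highest at 0.70 and Egr1 with Zfp36 lowest at -0.39.

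Averaged over the members, control 8 was the highest array, with a mean deviation of 0.27 from the average member level, and control 2 the lowest at -0.18. The mean member level was 8.86 ± 0.17 (SD, n = 8) in controls and 8.86 ± 0.084 (SD, n = 5) in ezetimibe mice. The genes whose slide-adjusted pattern over the 13 arrays was most like this mean, out of 8966 other tested genes, were Nmb, Crim1 and Smad2 (r = 0.86 each), Gm5801 and Tubb4b (0.82), Olfr1386 and Rnf139 (0.80), and Plaur, Zc3h7a and Ggt1 (0.78). The least like were Ppp1r26 (-0.89), AI597479 (-0.86), Leo1 and Lig4 (-0.82) and Man1b1 (-0.81). Several of these probes were near background: of the 13 arrays, Nmb was detected on 8, Crim1 on 6, and Olfr1386, Rnf139 and Lig4 on 5 each, while Smad2, Gm5801, Tubb4b, Zc3h7a, Ggt1, Leo1 and Man1b1 were detected on all. The median r over those genes was -0.043, with 0.435% at or above 0.70. Most of the 26 other tested immediate early genes had an r above 0 with the member mean. The 4 named here were picked after their values were seen. Nr4a2, a sister receptor of Nr4a1 detected on 8 of the 13 arrays, was highest at 0.74, and Ier3, a stress-response gene, followed at 0.63. Jund, at -0.15, and Btg1, the lowest at -0.25, were among the minority below 0.

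Junb, which shared little with the other members, had the highest r with the mean of the 26 other tested immediate early genes. It was 0.76 (two-sided permutation p = 0.00215, adjusted 0.0516 over 24 relations). Spearman's rho was 0.75 (permutation p = 0.00681, adjusted 0.163). Pearson's r was 0.76 without the 2 arrays farthest from the median, 0.93 on slide 1 and 0.69 on slide 2. These 24 relations, of each tested member with 3 gene lists, were added after the values had been seen, and only this one passed an adjusted p of 0.10 by Pearson's r. They were not rerun with median scaling or with diet taken out. The share of all tested genes with so high an r to that mean was not computed. With the pancreas markers, Jun gave r = 0.54 (permutation p = 0.0694, adjusted 0.649) and Zfp36 0.48 (permutation p = 0.108). With the heat shock genes, r lay between -0.41 (Junb) and 0.27 (Zfp36). With the mean pancreas level as a covariate, 0 members were called between diets (smallest limma adjusted p = 0.9248), and the log2 fold change of Jun was 0.07. Whether pancreas RNA or tissue handling caused differences in the members' levels was not tested.

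The slides differed far more than the diets, and in opposite directions for different members. Slide 2 differed from slide 1 for 5 of 8 members, against 53.3% of all tested probes (limma, adjusted p under 0.10), a share near the background. Levels were higher on slide 2 for 3 members, against 28.8% of all tested probes, and lower for 2, against 24.5%. Before slide adjustment, Fos was at 10.32 ± 0.19 (SD, n = 6) on slide 1 and 9.70 ± 0.25 (SD, n = 7) on slide 2, a difference of -0.62 ± 0.12 (SE; limma adjusted p = 0.000641). Dusp1 was also lower on slide 2, by -0.54 ± 0.15 (SE; limma adjusted p = 0.0101). Jun was higher there by 0.31 ± 0.11 (SE; limma adjusted p = 0.0383), Junb by 0.36 ± 0.11 (SE; limma adjusted p = 0.0182) and Zfp36 by 0.22 ± 0.08 (SE; limma adjusted p = 0.0291). Jun was no longer called without ezetimibe mouse 1 (limma adjusted p = 0.105), and Atf3, at -0.23, was called without control 2 (-0.38; limma adjusted p = 0.0687). Egr1 and Fosb were not called with quantile normalisation.

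The direction for Jun, Junb and Zfp36 depended on the scaling. With median scaling in place of quantile normalisation, the median slide difference of all tested probes moved from 0.053 to -0.38, and Jun, Junb and Zfp36 were lower on slide 2. Zfp36 was called in that direction (-0.27; limma adjusted p = 0.0834), and Jun and Junb were not (limma adjusted p = 0.181 and 0.292). Egr1, at 0.10 with quantile normalisation, was called lower on slide 2 at -0.49 (limma adjusted p = 0.0296), and Atf3 at -0.83 (limma adjusted p = 0.00123). Relative to that median, Fos stood at -0.67 with quantile normalisation and -0.79 with median scaling, and Dusp1 at -0.59 and -0.74. Jun, Junb and Zfp36 stood above it under both, by 0.26, 0.30 and 0.17 with quantile normalisation and by 0.12, 0.20 and 0.11 with median scaling. Both slides hold both diets, so the slide term takes this difference out of the ezetimibe comparison.

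**Figure D5:**
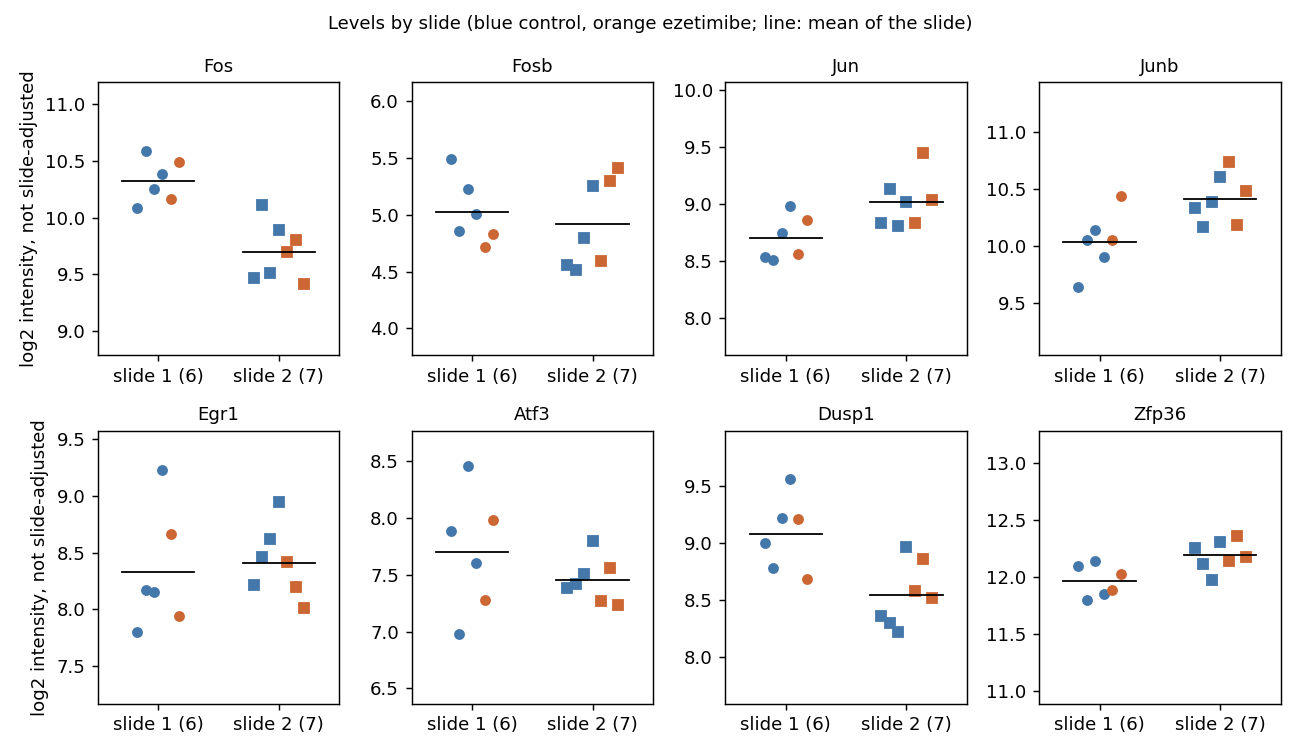
Log2 level of the tested members on the 6 arrays of slide 1 and the 7 arrays of slide 2 before slide adjustment, after quantile normalisation. Fos and Dusp1 lie lower on slide 2, and Jun, Junb and Zfp36 lie higher, a direction that turns for those 3 under median scaling.

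The diets were also compared within each slide. The estimate was a log2 fold change of -0.37 on slide 1 and 0.32 on slide 2 for Fosb, and -0.20 and 0.19 for Dusp1. Junb was above 0 on both, at 0.31 and 0.095, and Egr1 below 0 on both, at -0.036 and -0.35. With the mean member level added to the model as a covariate, 26 of 11887 probes (0.219%) differed between diets (limma, adjusted p under 0.10), against 30 without it, and 25 were shared. Leaving out 1 array moved the 26 to between 19 and 40, the highest without control 6. Genes are named here after their values were seen. Those that no longer passed had lain near the threshold without the covariate. They were Aldh1a7 (limma adjusted p = 0.08995 without it and 0.118 with it), Elf3 (0.08433 and 0.114), Gclm (0.07716 and 0.1115), Gss (0.0886 and 0.1181) and Rtkn (0.07716 and 0.1155). The mean member level was almost equal in both diets (8.86 in each), so as a covariate it could hardly move any log2 fold change. The values that follow therefore do not show whether the calls depend on that level. Aldh1a7 went from 0.7475 to 0.7507, Elf3 from -0.7318 to -0.7282 and Gclm from 0.4165 to 0.4179. Gss went from 0.4394 to 0.4409 and Rtkn from 0.4433 to 0.4432. Pgm2 passed at 0.0987 with the covariate, from 0.1419 without it.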

How the data were processed

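RNA of 13 mice was measured on 13 arrays. For each probe and array the deposited unnormalised table gives a linear bead intensity, per the file headers. It also gives a deposited detection p-value. A deposited table of processed intensities was, per the series' design text, quantile-normalised and corrected with Combat by the authors, and was used as an alternative. Software versions and the probes' genome build: not given in the sources used here. The signals were background-corrected with neqc (normexp from detection p, offset 16), quantile-normalised and taken to log2 in limma 3.58.1 (R 4.3.3). A probe entered the test where 5 or more of the 13 arrays gave a detection p below 0.05 (11887 of 25697 probes, or 46.3%), with lmFit on slide and diet and eBayes with trend. Adjusted p-values are Benjamini-Hochberg over all tested probes, at 0.10. Symbols were updated through RefSeq synonyms: 20439 were current, 4135 renamed, 1103 kept and 20 were dates. Where a gene has several probes, the brightest tested one stands for it in correlations, computed in Python 3.11.15 with scipy 1.17.1 and 100000 permutations within slides. The fits were tested on simulated data. The members and lists were chosen with earlier results of these data known. By rule, named genes were all members, up to 2 genes of smallest p per list, and the 10 most and 5 least like the member mean. Outside it, Nr4a2, Ier3, Jund, Btg1, Fabp1, Fabp2, Hspa1a and the genes whose call changed with the covariate were named after their values were seen. The number of arrays limits the precision.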

Additional observations from a re-analysis of the deposited data

How the results depend on the processing

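No member passed an adjusted p of 0.10 (limma) in any of 32 alternatives. Over all probes, 30 differed between diets, against 17 without the slide term, 6 on slide 1 alone, 10 on slide 2 alone and 81 with the 1.1-fold prefilter; leaving out 1 array gave 20 to 45. With the member level as covariate, 26 became 16 without the slide term, 5 on slide 1, 8 on slide 2, 13 with position on the slide, 78 with the prefilter and 45 with the deposited processed values without slide term; leaving out 1 array gave 19 to 40, the highest without control 6. The slide difference, 6330 probes, fell to 3 in the deposited processed values, which were already corrected for batch. In those values the slide calls of Fos, Jun, Junb, Dusp1 and Zfp36 were lost, and that of Jun also without ezetimibe mouse 1 (0.25, limma adjusted p = 0.105). Under median scaling the slide differences of Jun (-0.27), Junb (-0.19), Egr1 (-0.49) and Zfp36 (-0.27) reversed, with Egr1 and Zfp36 past the threshold and Jun and Junb not. Atf3 also passed there at -0.83 (and without control 2, at -0.38), the median r of the pairs was 0.32, and 3 pairs passed (Jun with Zfp36, Fos with Jun, Atf3 with Zfp36); over all tested gene pairs the median r was then 0.287. Without control 7, 1 pair passed (Atf3 with Zfp36, r = 0.84); leaving out 1 array gave 0 to 1 pairs and a median r of 0.065 to 0.25. Replicate numbers were not taken as pairs in the main fit. The deviations of same-numbered arrays correlated at -0.42 to 0.36. So few values, from deviations that the slide and diet terms constrain, cannot show whether those mice were paired. With replicate number as a block, 23 probes differed between diets, 7 with the member covariate, and 501 between slides, and the 5 members' slide calls were lost. The cause of these changes was not tested.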

Other observations

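Hspa1a, the inducible HSP70 gene, varied widely between mice of both groups and was chosen here after its values had been seen. It was detected on 9 of 13 arrays, with a log2 level of 5.87 ± 1.18 (SD, n = 8) in controls and 6.06 ± 1.55 (SD, n = 5) in ezetimibe mice. Its log2 fold change was 0.19 ± 0.64 (SE; limma adjusted p = 0.98).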
